A study of Rattus norvegicus with 8 samples.

Results

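The genes described here encode the folding, translocation and degradation machinery of the endoplasmic reticulum, together with the sensors and transcription factors that regulate it. They were taken by symbol from a list of 33 genes, and each gene was read from 1 probe set, the brightest on average across the 8 arrays among those annotated with its symbol alone. The list yielded 31 measured genes out of 14217 named genes in the table; Derl3 and Ern1 were not analysed here. Liver RNA had been hybridised to Affymetrix expression arrays, 1 array per liver. The iron-deficient group held 4 livers of male Sprague-Dawley rats (an outbred strain) given a diet prepared without the ferric citrate that supplies iron. The control group held 4 livers of male Sprague-Dawley rats given the matching diet with ferric citrate. All rats were 7 weeks old, had been held to daytime meals near the end, and were killed on day 17 of the diets after 1.5 h of feeding. The diets were given to 7 iron-deficient and 6 control rats, hemoglobin in the iron-deficient group had reached 42% of the control level, and the labels do not tie arrays to particular rats beyond calling them biological replicates.

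Secreted and membrane proteins enter the endoplasmic reticulum through the Sec61 channel, are folded there by chaperones and by enzymes that form disulfide bonds, and are returned to the cytosol for proteasomal degradation when folding fails. When unfolded proteins accumulate, the sensors encoded by Ern1, Atf6 and Eif2ak3 start the unfolded protein response, in which ATF6 and XBP1 raise transcription of chaperone and degradation genes. The hepatocyte makes most plasma proteins and holds a large endoplasmic reticulum, and the liver adds a membrane-bound sensor of its own, Creb3l3.

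In the values as deposited, no measured gene of this machinery changed past the threshold in iron-deficient livers, and the direction of its differences depended on how the arrays were scaled. In the deposited values, 25 of the 31 genes were lower in iron-deficient livers and 6 were higher, but after quantile normalization 5 were lower and 26 higher (40.6% of all named genes lower). Of the 26, 11 were then past the limma threshold, where 5.12% of named genes were called higher. No spread between the livers of a diet was then left in Hsp90b1, Calr, Pdia3, Pdia4, Pdia6, Sec61b, Herpud1, Edem1, Derl2, Xbp1 and Creb3l3. Among the called were Herpud1, Hsp90b1, Creb3l3 and Xbp1, whose shared SE of 8.71e-06 came from the variance model. Calls of genes without spread do not measure variation between livers. A lower sign in the deposited values was found for 80.6% of the 31 genes and for 53% of all named genes. The limma adjusted p was 0.272 or more for each of the 31, where 0.0422% of named genes were called. An unadjusted p under 0.05 was reached by 5 of the 31, or 16.1%, against 13.2% of all named genes. Of these, Sel1l, P4hb, Sec61a1 and Dnajc3 were lower, where 7.5% of named genes were lower at that threshold. Ero1a was higher, where the background was 5.74%. The median standardised difference (difference between the group means over the within-group SD) was -0.877 over the 31 genes and -0.0727 over all named genes. The number with an unadjusted p under 0.05 turned on single livers. It was 12, all lower, without iron-deficient replicate 3 (background 7.06%). It was 2 without iron-deficient replicate 1 (12.75% of named genes, both directions) and 3 without iron-deficient replicate 4 (11.63%). Leaving out a control gave 3 without replicate 1 (14.01%), 2 without replicate 3 (9.77%) and 1 without replicate 4 (13.28%).

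All deposited values lay between 5.32 and 16.1 on a log2 scale, and differences between arrays were compressed. The median absolute difference between diets was 5.30e-06 over the named genes, and the median within-group SD was 8.72e-06. Deposited differences are therefore not fold changes, and their sizes cannot be set against each other between genes. Values in single livers are given below as standardised values, which are the deviation of an array from the gene's mean over all 8 arrays in units of that gene's within-group SD. All 31 genes had a mean above the median level of the probe sets, from the 57.3rd percentile for Wfs1 to the 99.5th for Hspa5. In this bulk tissue, fewer cells of a type and less RNA per cell cannot be told apart.

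Hamp, the gene of the iron-regulating hormone hepcidin, bears on the scaling. Its deposited value was 6.98, 10.58, 6.99 and 6.93 in iron-deficient replicates 1 to 4, against 16.01, 15.99, 15.99 and 16.10 in control replicates 1 to 4. Hamp therefore stood above all 31 genes in the 4 control livers and below 19 of them in the 4 iron-deficient livers, so that those 19 each moved up by a place in the iron-deficient arrays by construction. Without the Hamp probe set, 11 of the 31 genes held exactly the same rank among the probe sets in all 8 livers. They were Hsp90b1, Calr, Pdia3, Pdia4, Pdia6, Sec61b, Herpud1, Edem1, Derl2, Xbp1 and Creb3l3. The median gene of the 31 then moved over a range of 1 rank and the most variable, Creld2, over 23 ranks, out of 31042 probe sets with Hamp included. After quantile normalization without Hamp, 13 of the 31 genes were lower in iron-deficient livers, 12 showed no difference and 6 were higher (57.8% of named genes lower), and none passed the limma threshold (0.183% of named genes called higher). Median centring, which shifts every gene by the same constant, gave 17 lower and 14 higher, where 9.19% of all named genes were lower.

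**Figure D1:**
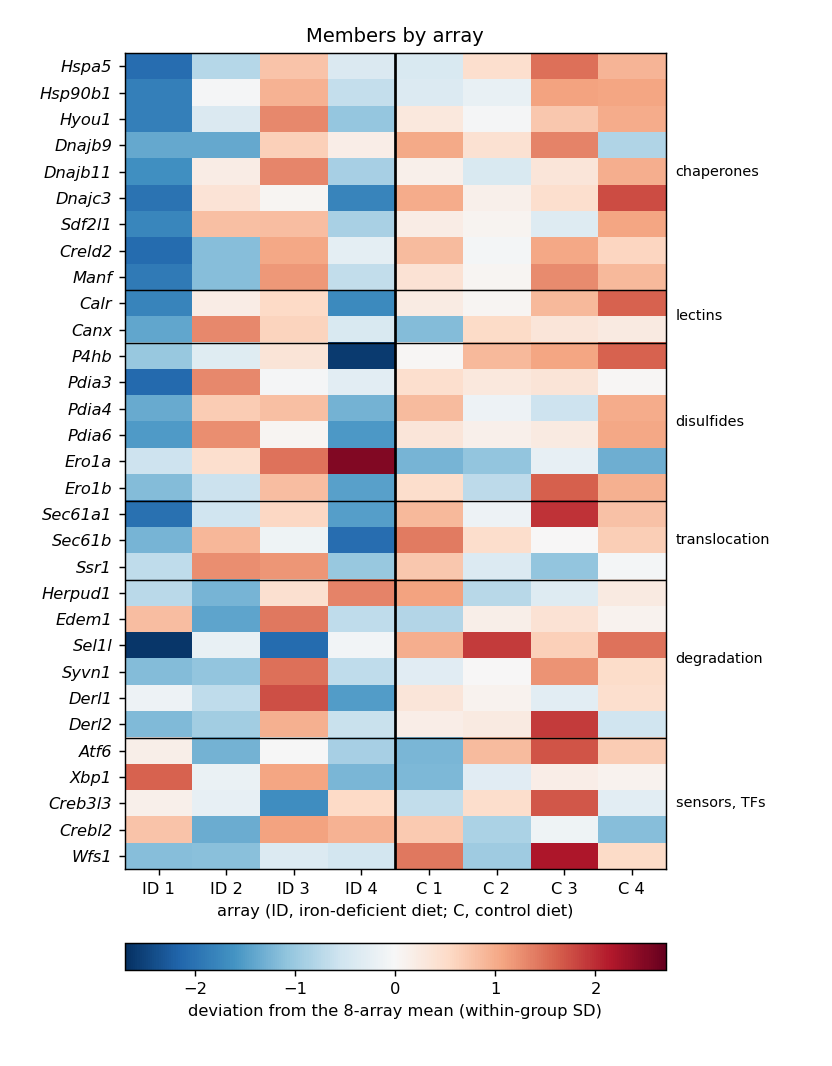
Standardised deposited values of the 31 genes (rows) in the 4 iron-deficient arrays (ID, left) and the 4 control arrays (C, right), in within-group SDs from the mean over 8 arrays, with rows grouped by role. Iron-deficient replicate 1 is blue across all chaperone rows and iron-deficient replicate 3 is mostly red. In these values 25 rows are lower in iron-deficient livers, but after quantile normalization 5 are.

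The Hsp70 and Hsp90 chaperones of the lumen and their cofactors were lower in iron-deficient livers for 9 of 9 genes in the deposited values, but for 3 of 9 after quantile normalization, 6 of 9 when Hamp was left out of it and 9 of 9 after median centring. Their median standardised difference was -0.984, and only Dnajc3 had an unadjusted p under 0.05. Hspa5 encodes BiP, the Hsp70 that binds nascent chains and holds the stress sensors inactive. Its deposited values were 13.04486, 13.04496, 13.04509 and 13.04500 in iron-deficient replicates 1 to 4, against 13.04499, 13.04506, 13.04515 and 13.04510 in control replicates 1 to 4. Iron-deficient replicate 1 was the lowest liver and the groups overlapped. The difference was -1.00e-04 ± 5.57e-05 (SE, n = 4 per group; limma adjusted p = 0.560), and it turned higher after quantile normalization, with or without Hamp.

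Hsp90b1 encodes GRP94, the Hsp90 of the lumen. Its standardised values were -1.85, -0.03, 0.94 and -0.65 in iron-deficient livers, against -0.37, -0.20, 1.09 and 1.07 in control livers. Iron-deficient replicates 1 and 4 lay below every control and replicates 2 and 3 lay among the controls. The difference was -1.93e-04 ± 1.65e-04 (SE, n = 4 per group; limma adjusted p = 0.727). Hyou1, a large Hsp70 relative that exchanges nucleotide on BiP, read -1.84, -0.38, 1.30 and -1.05 in iron-deficient livers, against 0.28, -0.04, 0.72 and 1.01 in control livers. Here 3 iron-deficient livers lay below every control and replicate 3 lay above every control. The difference was -0.00180 ± 0.00124 (SE, n = 4 per group; limma adjusted p = 0.648).

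The J-domain proteins deliver substrates to BiP and stimulate its ATPase. Dnajc3, a J-domain protein also known as an inhibitor of eIF2alpha kinases, read -1.99, 0.37, 0.05 and -1.79 in iron-deficient livers, against 1.01, 0.14, 0.45 and 1.76 in control livers. All 4 iron-deficient livers were below the control mean, with replicates 1 and 4 far below it and only replicate 2 within the range of the controls. The difference was -1.63e-04 ± 6.56e-05 (SE, n = 4 per group; unadjusted p = 0.0445 and adjusted p = 0.424 in limma). It turned higher after quantile normalization, but not when Hamp was left out. Dnajb9 (standardised difference -0.98) and Dnajb11 (standardised difference -0.52), further J-domain partners of BiP, overlapped between the diets.

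Sdf2l1 forms a complex with Dnajb11, and Creld2 and Manf are small proteins induced by endoplasmic reticulum stress. Sdf2l1 read -1.77, 0.80, 0.82 and -0.86 in iron-deficient livers, against 0.21, 0.08, -0.34 and 1.06 in control livers, a difference of -4.23e-04 ± 5.66e-04 (SE, n = 4 per group; limma adjusted p = 0.844). Iron-deficient replicate 1 made this difference, since without it the value was 1.04e-06. Creld2 read -2.07, -1.14, 1.05 and -0.26 in iron-deficient livers, against 0.85, -0.06, 1.05 and 0.58 in control livers. Iron-deficient replicate 3 lay at the top of the controls and the other 3 iron-deficient livers lay below all of them. The difference of Creld2 was -0.00323 ± 0.00180 (SE, n = 4 per group; limma adjusted p = 0.561). Manf had a standardised difference of -1.28 (unadjusted p = 0.102 in limma) with the same order of iron-deficient livers at its ends, replicate 1 lowest and replicate 3 highest.

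Calreticulin and calnexin, encoded by Calr and Canx, retain glycoproteins through their sugar chains until folding is complete. Calr had a standardised difference of -1.38, and all 4 iron-deficient livers were below the control mean (unadjusted p = 0.0834 in limma). Canx differed by 7.58e-07 ± 1.12e-05, a standardised difference of 0.05, and its sign turned without iron-deficient replicate 2 or 3 or control replicate 1. Both genes were higher in iron-deficient livers after quantile normalization.

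The disulfide isomerases and oxidases were lower in iron-deficient livers for 5 of 6 genes in the deposited values, but for none after quantile normalization, 2 of 6 when Hamp was left out of it and 3 of 6 after median centring. P4hb is protein disulfide isomerase itself, which also serves as the beta subunit of collagen prolyl 4-hydroxylase. Its standardised values were -1.02, -0.33, 0.35 and -2.58 in iron-deficient livers, against 0.03, 0.88, 1.07 and 1.59 in control livers. Replicate 4 was far below the other livers, and only replicate 3 lay within the range of the controls. The difference was -1.43e-05 ± 5.44e-06 (SE, n = 4 per group; unadjusted p = 0.0362 and adjusted p = 0.405 in limma), and it turned higher after quantile normalization and after median centring, though not after quantile normalization without Hamp.

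Ero1a, the oxidase that renews disulfide isomerases and whose transcription is known to be induced in hypoxic cells, was the exception in direction. Its standardised values were -0.57, 0.46, 1.46 and 2.50 in iron-deficient livers, against -1.25, -1.07, -0.21 and -1.32 in control livers. All 4 iron-deficient livers were above the control mean, and iron-deficient replicate 1 was the only one to fall within the range of the controls. The difference was 2.03e-04 ± 7.13e-05 (SE, n = 4 per group; unadjusted p = 0.0264 and adjusted p = 0.370 in limma). It was higher in iron-deficient livers under every scaling but 1, ranks without Hamp, where the difference was 0. Its second probe set had the opposite sign. Ero1b, the other oxidase of the family, had a standardised difference of -1.18, and its probe sets also differed in sign.

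Pdia3, which acts on glycoproteins held by calreticulin and calnexin, read -2.10, 1.31, -0.03 and -0.29 in iron-deficient livers, against 0.45, 0.28, 0.35 and 0.03 in control livers. The iron-deficient livers fell on both sides of a tight group of controls, with a standardised difference of -0.56. The isomerases Pdia4 and Pdia6 had standardised differences of -0.58 and -0.88, with iron-deficient replicates 1 and 4 below every control in both.

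Of the translocation genes, Sec61a1 and Sec61b, which encode the alpha and beta subunits of the channel, were lower in iron-deficient livers and Ssr1, a subunit of the translocon-associated complex, was higher. After quantile normalization, with or without Hamp, and after median centring 1 of these 3 was lower. Sec61a1 read -2.02, -0.54, 0.55 and -1.48 in iron-deficient livers, against 0.87, -0.13, 1.95 and 0.79 in control livers. Replicate 3 was the only iron-deficient liver within the range of the controls. The difference was -1.12e-04 ± 4.35e-05 (SE, n = 4 per group; unadjusted p = 0.0384 and adjusted p = 0.410 in limma). It turned higher after quantile normalization, was 0 when Hamp was left out of it, and was 5.74e-05 in the probe set with the largest SD. Sec61b had a standardised difference of -1.26 and Ssr1 of 0.38, and the probe sets of Ssr1 differed in sign.

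The degradation genes were lower in iron-deficient livers for 5 of 6 in the deposited values, but for none after quantile normalization, 2 of 6 when Hamp was left out of it and 2 of 6 after median centring. Sel1l, the adaptor that recruits misfolded proteins to the ubiquitin ligase, was the only 1 of the 31 genes without overlap between the diets, where 4.4% of named genes were lower without overlap. Its standardised values were -2.64, -0.19, -2.08 and -0.08 in iron-deficient livers, against 0.97, 1.90, 0.65 and 1.47 in control livers. The lowest livers were iron-deficient replicates 1 and 3, so Sel1l did not follow the order of the chaperones, for which replicate 3 was mostly the highest. The difference was -1.05e-04 ± 2.85e-05 (SE, n = 4 per group; unadjusted p = 0.00870 and adjusted p = 0.272 in limma). Without single arrays it lay between -1.22e-04 and -8.56e-05, but it turned higher after quantile normalization, with or without Hamp.

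Syvn1, the ubiquitin ligase that Sel1l serves, had a standardised difference of -0.72 with iron-deficient replicate 3 above every control and the other 3 iron-deficient livers below every control. Herpud1, a stress-induced scaffold of the ligase complex, read -0.73, -1.27, 0.43 and 1.34 in iron-deficient livers, against 1.09, -0.74, -0.36 and 0.24 in control livers. The iron-deficient livers enclosed the controls, with a difference of -2.02e-06 ± 1.22e-05 (SE, n = 4 per group; limma adjusted p = 0.975). Edem1, a lectin that directs mannose-trimmed glycoproteins to degradation, had a standardised difference of 0.08. Derl1 and Derl2, membrane proteins of the retrotranslocation complex, had standardised differences of -0.30 and -0.89.

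The sensors and transcription factors were mixed, with 3 of 5 lower in the deposited values and 1 of 5 after quantile normalization, with or without Hamp, and after median centring. Atf6, the sensor that is cleaved to release a transcription factor, read 0.17, -1.27, 0.00 and -0.89 in iron-deficient livers, against -1.22, 0.85, 1.69 and 0.68 in control livers. All 4 iron-deficient livers were below the control mean, but control replicate 1 was among the lowest of all. The difference was -7.03e-05 ± 4.75e-05 (SE, n = 4 per group; limma adjusted p = 0.643), and its probe sets differed in sign. Xbp1, whose mRNA is spliced by the Ern1 product, a form that was not measured apart here, read 1.58, -0.19, 1.06 and -1.22 in iron-deficient livers, against -1.21, -0.31, 0.18 and 0.10 in control livers. Its iron-deficient livers reached above every control and as far down as the lowest, with a difference of 2.64e-05 ± 2.89e-05 (SE, n = 4 per group; limma adjusted p = 0.797).

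Creb3l3, the liver-enriched sensor CREBH, is known in mouse to act on the Hamp promoter during endoplasmic reticulum stress. It read 0.14, -0.23, -1.67 and 0.55 in iron-deficient livers, against -0.66, 0.48, 1.68 and -0.29 in control livers. The groups overlapped and iron-deficient replicate 3 was the lowest liver. The difference was -4.02e-05 ± 4.49e-05 (SE, n = 4 per group; limma adjusted p = 0.802). Crebl2, a basic leucine zipper protein related to CREB, had a standardised difference of 0.71, and its probe sets differed in sign. Wfs1, the membrane protein wolframin, had a standardised difference of -1.58 with all 4 iron-deficient livers below the control mean (unadjusted p = 0.0558 in limma).

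**Figure D2:**
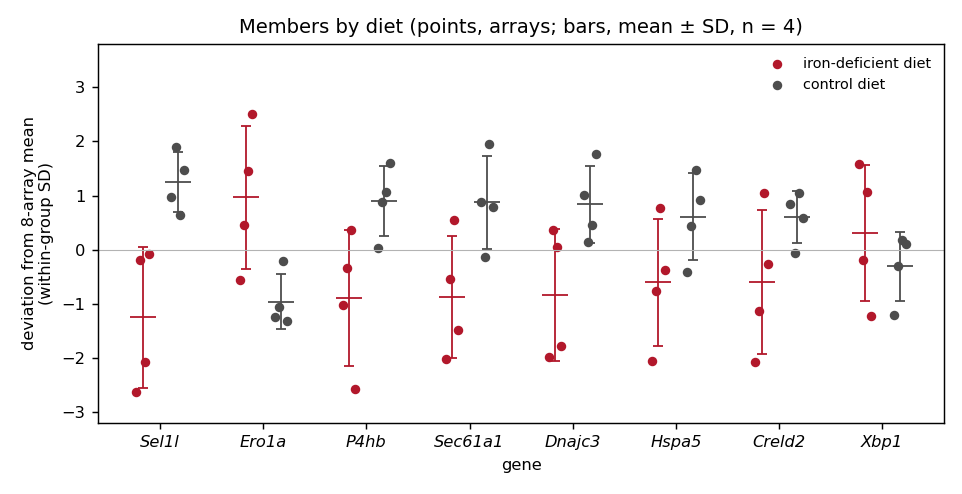
Standardised deposited values (y axis, within-group SDs from the mean over 8 arrays) of the 5 genes with an unadjusted p under 0.05 and of Hspa5, Creld2 and Xbp1, with iron-deficient livers in red left of control livers in grey. Points are arrays, bars are mean ± SD (n = 4), and only Sel1l shows no overlap. The sign turned after quantile normalization for Sel1l, P4hb, Sec61a1, Dnajc3 and Hspa5, and in the version without Hamp for Sel1l and Hspa5.

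The genes did not follow diet alone but also the single liver. In iron-deficient replicates 1 to 4, 26, 20, 7 and 27 of the 31 genes were below their own median over the 8 arrays, or 83.9%, 64.5%, 22.6% and 87.1%. For all named genes the shares were 51.7%, 49.7%, 47.9% and 56.3%. In control replicates 1 to 4 the counts were 11, 18, 7 and 8 of 31. In the deposited values, iron-deficient replicate 3 thus had as few of the genes below their median as any control, but after median centring it had 25 below and replicate 4 had 5. Of the 17 folding genes, 17, 8, 3 and 16 were below their median in iron-deficient replicates 1 to 4, against 6, 12, 2 and 4 in control replicates 1 to 4. Within the iron-deficient group, replicate 1 was lowest for 19 of the 31 genes (25.4% of named genes) and replicate 3 was highest for 19 (29.5% of named genes). These counts also turned with the scaling, to 9, 7, 0 and 7 of 31 in iron-deficient replicates 1 to 4 after quantile normalization and to 11, 7, 1 and 10 when Hamp was left out of it.

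**Figure D3:**
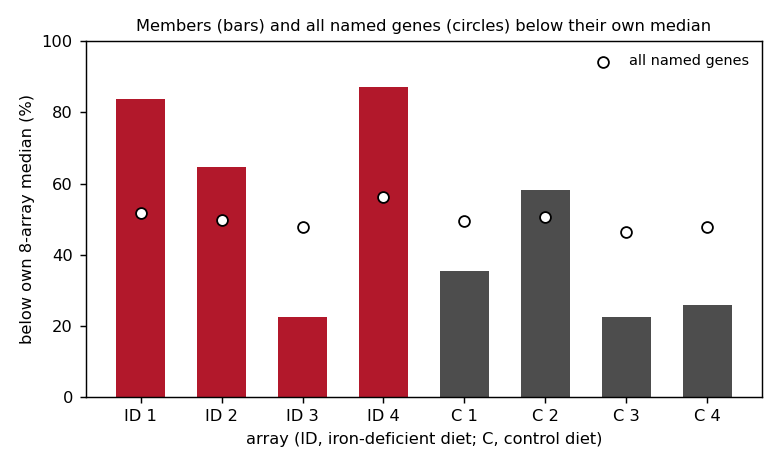
Share of the 31 genes below their own median over 8 arrays (bars, %), with iron-deficient arrays (ID) in red left of control arrays (C) in grey, and the share of all named genes (circles, %). In the deposited values iron-deficient replicates 1, 2 and 4 reach 64.5% to 87.1% and replicate 3 reaches 22.6%. After quantile normalization the red bars would stand for 9, 7, 0 and 7 of the 31 genes, and after median centring replicates 3 and 4 turn to 25 and 5 genes.

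Within diets, the luminal chaperones varied together from liver to liver in the deposited values, but less so after quantile normalization. As a description over the same 8 arrays, the correlation of deviations from the diet means had a median of 0.758 over the 36 pairs of Hsp70 and Hsp90 chaperones and cofactors. It was 0.458 over the disulfide enzymes, 0.113 over the degradation genes and -0.0098 over the sensors and transcription factors. Over all 465 pairs of the 31 genes the median was 0.331, against 0.005 over all pairs of named genes. With Hspa5, 13 of the other 30 genes had a correlation above 0.5, or 43.3%, against 16.2% of all named genes. The closest were Hsp90b1 at 0.92, Manf at 0.90, Syvn1 at 0.88, Hyou1 at 0.83 and Creld2 at 0.80. Genes on an array share its RNA, labelling and scaling. After quantile normalization without Hamp the median was 0.167 over the 28 chaperone pairs that still varied and 0.113 over the 190 such pairs of all 31 genes. After median centring, which adds the same shift to every gene of an array, the order of the classes turned, with medians of 0.514 over the chaperones, 0.711 over the disulfide enzymes, 0.955 over the degradation genes, 0.982 over the sensors and transcription factors and 0.807 over all 31.

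The spread between livers was larger in the iron-deficient group for 27 of the 31 genes, or 87.1%, where 53.8% of named genes had the larger SD there. The median ratio of the iron-deficient to the control SD was 1.75 for the 31 genes, 1.94 for the folding genes and 1.06 for all named genes. All 17 folding genes were above 1, from 1.05 for Ero1b to 7.99 for Pdia3. The 4 genes with the smaller SD in iron-deficient livers were Derl2 at 0.94, Creb3l3 at 0.93, Atf6 at 0.56 and Wfs1 at 0.30. After quantile normalization without Hamp 11 genes did not vary between arrays. The larger SD was then in iron-deficient livers for 10 genes and in control livers for 8, and after median centring for 7 and 24.

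**Figure D4:**
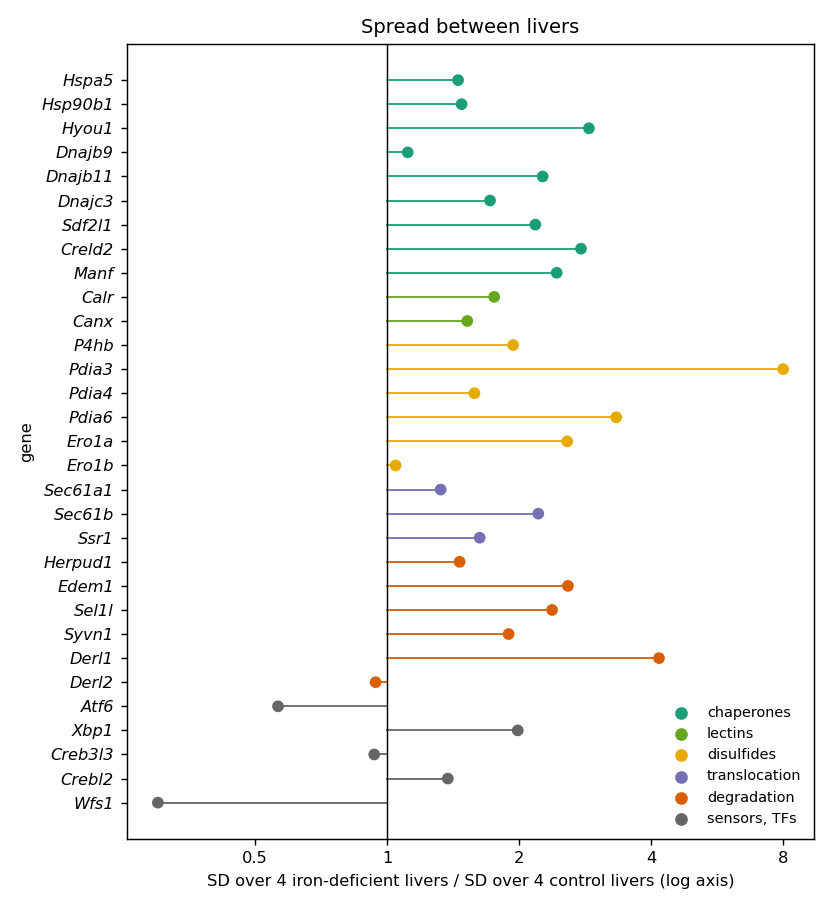
Ratio of the SD over 4 iron-deficient livers to the SD over 4 control livers in the deposited values (log axis), for 31 genes coloured by role. In these values 27 genes lie right of 1, led by Pdia3 at 7.99, and Wfs1 is lowest at 0.30. After quantile normalization without Hamp the larger SD was in iron-deficient livers for 10 genes and in control livers for 8, and 11 genes did not vary.

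Several of the genes have more than 1 probe set. The 31 genes had 47 probe sets, and in 8 of the 12 genes with more than 1 the probe sets differed in sign: Atf6, Crebl2, Derl1, Edem1, Ero1a, Ero1b, Sec61a1 and Ssr1. Of the 16 probe sets not used to represent a gene, 7 were lower in iron-deficient livers and none had an unadjusted p under 0.05 in limma.

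Transcription of chaperone genes in this response is driven through the endoplasmic reticulum stress element (ERSE), which binds NF-Y at its CCAAT end and ATF6 or XBP1 at its CCACG end. The 250 bases before each annotated start were searched on both strands in RefSeq (build GRCr8), where 25 of the 33 listed genes had a window. Searched were ERSE (CCAAT, then 9 bases of any kind, then CCACG), ERSE-II (ATTGG, then 1 base, then CCACG), and TGACGTGG, which XBP1 and ATF6 also bind. The complement of TGACGTGG contains CCACG, so it can overlap the other elements. ERSE stood in 9 of the 25 genes, or 36%, against 21 of 27457 genes with a window, or 0.0765%. ERSE-II stood in 2 of the 25, or 8%, against 0.051% of genes, and TGACGTGG in 1 of the 25, or 4%, against 0.594% of genes. The 27457 genes include the 25. The list holds known targets of this response, so the contrast in shares is a description and not a test. The stretches below carry the elements of the best known targets, read 5′ to 3′ on the gene's strand, with both half-sites of each element in capitals (CGTGG and ATTGG are the complements of CCACG and CCAAT).
Hspa5, chr3:38452961-38453003, plus strand: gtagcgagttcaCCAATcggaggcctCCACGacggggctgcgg
Hsp90b1, chr7:23012439-23012481, minus strand: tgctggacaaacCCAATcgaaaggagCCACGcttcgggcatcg
Hsp90b1, chr7:23012335-23012377, minus strand: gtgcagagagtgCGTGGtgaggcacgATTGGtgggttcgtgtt
Dnajc3, chr15:102432522-102432564, plus strand: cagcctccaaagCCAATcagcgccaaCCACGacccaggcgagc
Creld2, chr7:121789227-121789269, plus strand: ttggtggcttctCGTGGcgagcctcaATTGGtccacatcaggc
Calr, chr19:40213123-40213165, plus strand: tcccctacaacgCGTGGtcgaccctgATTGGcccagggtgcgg
Xbp1, chr14:84604546-84604588, plus strand: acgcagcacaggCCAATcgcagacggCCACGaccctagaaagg
Hyou1, chr8:53602682-53602716, plus strand: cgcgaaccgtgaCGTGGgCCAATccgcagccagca
Hyou1, chr8:53602782-53602816, plus strand: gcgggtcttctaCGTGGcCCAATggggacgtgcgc
Herpud1, chr19:10614809-10614843, minus strand: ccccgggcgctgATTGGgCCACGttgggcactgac

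The elements differed in place as well as in orientation. Counting from -1 at the base before the start, the ERSE of Hspa5 ran from position -43 to -25 and that of Xbp1 from -65 to -47. Hsp90b1 held a pair, from -176 to -158 and, reversed, from -72 to -54. Both ERSE-II copies of Hyou1 were reversed, at -188 to -178 and at -88 to -78, and its TGACGTGG overlapped the farther copy. Canx, Ero1b and Derl3 also held an ERSE, and no element searched was found in the windows of the other 14 genes with a window. Manf, Pdia3, Pdia6, Ero1a, Sec61a1, Derl1, Ern1 and Atf6 had no window in the table. Only exact matches of the fixed letters were counted, so copies with a mismatch are not included. A match is a description of these letters and was not tested for binding.

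Genes with and without the elements overlapped in their differences. Of the 10 measured genes with ERSE or ERSE-II, 8 were lower in iron-deficient livers in the deposited values, with a median standardised difference of -1.08. Of the 14 with a window and neither element, 11 were lower, with a median of -0.662. Of 17 measured genes outside the list that hold ERSE or ERSE-II, 13 were lower, with a median of -1.07. The difference between these sets was not tested, and after quantile normalization 5 of the 31 genes in all were lower.

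**Figure D5:**
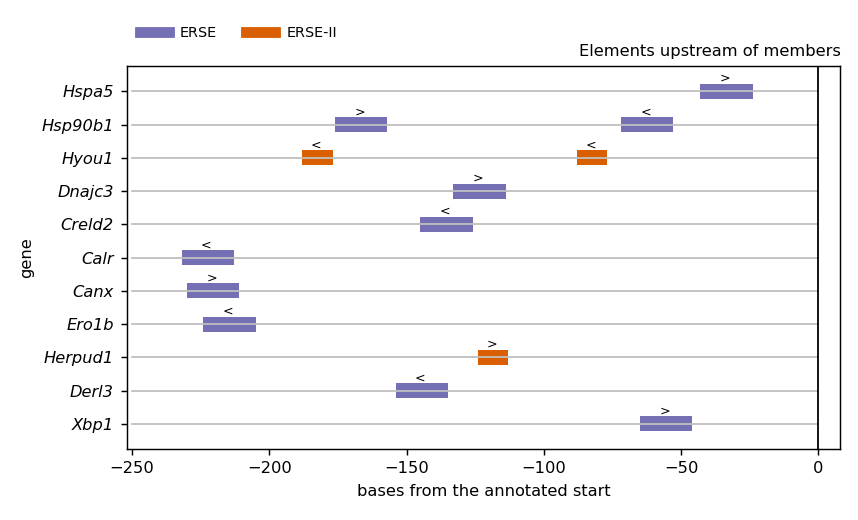
Position of ERSE (purple) and ERSE-II (orange) in the 250 bases before the annotated start (x axis, bases from the start) of 11 listed genes. Arrowheads give the orientation, > as written and < as the reverse complement. Only exact matches are shown. Among them that of Hspa5 lies nearest to the start, and Hsp90b1 and Hyou1 hold 2 each.

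Further genes of the same pathways were counted from lists that do not overlap the 31. None of their members passed the limma threshold. Median centring applies a constant shift that exceeds most of these differences, and it left 9.19% of all named genes lower. Lower after it were 3 of 28 other folding, 4 of 28 translocation and N-glycosylation and 4 of 23 degradation genes. The counts were 3 of 16 for the sensor genes and 7 of 19 for the cytosolic and mitochondrial genes. Of 28 other folding genes, 18 were lower in iron-deficient livers, but 1 was lower after quantile normalization and 5 with Hamp left out. At an unadjusted p under 0.05 in limma, 8 were lower and 1 higher in the deposited values (7.5% and 5.74% of named genes), but 0 lower and 10 higher after quantile normalization, 0 and 1 with Hamp left out, and 0 and 0 after median centring. Mogs and Prkcsh, which take part in glucose trimming of N-glycans, had standardised differences of -2.89 and -2.07, and Sil1, a nucleotide exchange factor of BiP, of -2.24. Of 28 genes of translocation and N-glycosylation, 21 were lower, but 1 after quantile normalization and 14 with Hamp left out. Ddost, a subunit of the oligosaccharyltransferase, had a standardised difference of -2.51, Tram1, a protein of the translocon, of -2.62 and Dad1, a further oligosaccharyltransferase subunit, of -1.62.

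Of 23 other degradation genes, 15 were lower, but 8 after quantile normalization and 19 with Hamp left out. At an unadjusted p under 0.05 in limma, 5 were lower and 0 higher in the deposited values (7.5% and 5.74% of named genes), but 0 were lower after quantile normalization, 1 with Hamp left out and 0 after median centring. Os9, a lectin that passes glycoproteins to the Sel1l complex, had a standardised difference of -4.04 (limma adjusted p = 0.130). Edem2, a mannosidase-like protein of the same route, had one of -3.48 (limma adjusted p = 0.162), and Hm13, the signal peptide peptidase, one of -2.38. Os9, Edem2 and Hm13 were among 4 of the 23 genes that were lower without overlap between the diets (4.4% of named genes). Of 16 other sensors and targets, 13 were lower, but 6 after quantile normalization and 8 with Hamp left out. Mbtps1, the protease that cleaves ATF6, had a standardised difference of -1.95, Tmbim6 of -1.83 and Bbc3, a pro-apoptotic target, of 1.52.

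Chaperones outside the endoplasmic reticulum gave similar counts. Of 19 cytosolic and mitochondrial chaperones, 17 were lower in iron-deficient livers, but 4 after quantile normalization and 11 with Hamp left out, and their median standardised difference was -0.866. Dnajb1, a cytosolic J-domain protein of the heat shock response, had a standardised difference of -2.81, Lonp1, a mitochondrial protease, of -2.51 and Hspa1a, the inducible cytosolic Hsp70, of -1.90. Whether the endoplasmic reticulum genes differed from these was not tested.

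No marker of another cell type passed the limma threshold (lowest adjusted p = 0.0735, Egfl7), but the mean values of the endothelial and stellate lists did not overlap between the diets in the deposited values. Hepatocyte markers were at the 94.8th percentile of level or above for 10 of 10, with a median standardised difference of -0.122. Of these, 4 were higher in iron-deficient livers in the deposited values and 10 after quantile normalization. With Hamp left out of it 9 showed no difference and 1 was higher, and after median centring 9 were higher. Of 10 measured endothelial markers 8 were higher in iron-deficient livers in the deposited values and after quantile normalization without Hamp, and 10 after quantile normalization with it. At an unadjusted p under 0.05, 6 endothelial, 6 stellate and 2 Kupffer cell markers were higher and none lower in the deposited values (5.74% of named genes higher). With Hamp left out of quantile normalization the counts were 2, 3 and 1, and after median centring 3, 3 and 1. The mean standardised value of the endothelial markers was 0.552 to 1.83 in iron-deficient livers, against -1.40 to -0.980 in control livers. Of 12 stellate cell and fibroblast markers 9 were higher, and 8 with either quantile normalization, at 0.473 to 1.08 in iron-deficient livers, against -0.958 to -0.645 in control livers. Kupffer cell and macrophage markers were higher for 10 of 10, but for 3 after quantile normalization without Hamp, at -0.565 to 1.22 in iron-deficient livers, against -1.23 to 0.223 in control livers. Of plasma and B cell markers 4 of 8 were lower, 4 after quantile normalization, 6 with Hamp left out of it and 1 after median centring. In the deposited values 2 of them were lower and 0 higher at an unadjusted p under 0.05 in limma (7.5% and 5.74% of named genes). These counts were 3 and 0 with either quantile normalization and 0 and 0 after median centring. Of erythroid markers 5 of 7 were higher, 3 after quantile normalization, 2 with Hamp left out of it and 6 after median centring, and of pancreatic acinar markers 8 of 12 were below the median level. The actin 3′ to 5′ difference was 1.406 to 1.408 in iron-deficient livers and 1.407 to 1.409 in control livers. The part of these markers and of RNA quality in the differences of the 31 genes was not tested.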

How the data were processed

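Affymetrix arrays of 4 iron-deficient and 4 control livers were compared. The authors deposited 1 log2 value per probe set and array, the unit being judged from their range; their summarisation and normalisation are not given in the sources used here. Columns of other series numbered 0. Of 31099 probe sets, 57 controls were left out. Of the remaining 31042, 20826 had 1 symbol in the platform annotation, 436 several and 9780 none, and 20758 were matched by gene identifier. Iron-deficient minus control was fitted on these values by limma 3.58.1 (lmFit, eBayes; R 4.3.3) without covariates, and Benjamini-Hochberg adjustment covered all 31042 probe sets at a threshold of 0.05. Precision is limited by having 4 arrays a group. The code was tested on simulated data.

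The members and lists were chosen with earlier results of these data known. Every member was named with a difference. Values of every array were given for members with an unadjusted p under 0.05 or no overlap and for Hspa5, Hsp90b1, Hyou1, Creld2, Sdf2l1, P4hb, Herpud1, Atf6, Xbp1 and Creb3l3 (Pdia3 was added after its values were seen). Up to 3 genes of each other list, those with the smallest p, were named. Protein sequences were not used here.

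Alternatives were quantile normalization with and without Hamp, median centring, ranks, a filter on the lowest 25% of probe sets, a replicate block, other variance models, array weights, other probe set choices and each array left out.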

Additional observations from a re-analysis of the deposited data

Results flagged for a closer look

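Crebl2 had a standardised value of -1.35 in iron-deficient replicate 2, apart from 0.76, 1.08 and 0.93 in iron-deficient replicates 1, 3 and 4. The gap to the nearest of them was 0.871 of the group's range, above Dixon's 95% critical value for 4 samples. It was the only such gap in 64 groups of 4 examined, where chance gives about 1 in 20, or 3.2. The control livers read 0.71, -0.86, -0.12 and -1.15.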

How the results depend on the processing

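With each array left out, 23 to 27 of the 31 genes were lower, none was called and the median standardised difference was -1.45 to -0.622. An unadjusted p under 0.05 was reached by 1 to 12 of them (9.77% to 14.01% of named genes). Herpud1 then lay between -1.04e-05 and 5.23e-06 and Sdf2l1 between -7.23e-04 and 1.04e-06, so both turned. The filter on low probe sets, trend, robust variances, array weights and other probe set choices left 25 to 27 of the 31 lower and none called, with 3 at an unadjusted p under 0.05 for the mean of all probe sets, and Sec61a1 turned to 5.74e-05 in the probe set with the largest SD. Quantile normalization gave 5 lower, 11 called (all higher, 5.12% of named genes) and a median of 1.41. With it 14 had an unadjusted p under 0.05 (20.4% of named genes). Other folding, translocation, degradation, sensor and cytosolic lists then had 1, 1, 8, 6 and 4 lower, and iron-deficient replicates 1 to 4 had 9, 7, 0 and 7 genes below their median. Differences turned to 0.00154 for Creb3l3, 1.19e-04 for Dnajc3, 0.00630 for Herpud1, 0.00418 for Hsp90b1, 0.00272 for Hspa5, 5.16e-04 for P4hb, 2.87e-05 for Sdf2l1, 0.00198 for Sec61a1 and 4.53e-04 for Sel1l. Ranks gave 5 lower (38.3% of named genes) and 12 called (830 of 14217 named genes). On ranks, 14 had an unadjusted p under 0.05 (21.6% of named genes) and the median was 1.39. The lists had 1, 2, 7, 5 and 4 lower and the livers 9, 7, 0 and 7. Rank differences were 1.5 for Hspa5, 0.5 for Dnajc3 and P4hb, and 1 for Creb3l3, Herpud1, Hsp90b1, Sec61a1 and Sel1l. For the 19 genes that Hamp crosses in all livers, leaving it out lowers the rank difference by exactly 1. With Hamp kept, the ranks of Hsp90b1, Calr, Pdia3, Pdia4, Pdia6, Sec61b, Herpud1, Edem1, Derl2, Xbp1 and Creb3l3 had no spread within a diet. Their shared SE was 0.0884, so their calls do not measure variation between livers. Of the 12 called on ranks, only Hspa5 (limma adjusted p = 0.0420) had spread within a diet. Quantile normalization without Hamp gave 13 lower, 0 called, 1 at an unadjusted p under 0.05, 5 other folding, 8 sensor and 11 cytosolic genes lower, livers of 11, 7, 1 and 10, Hspa5 at 4.35e-04 and Sel1l at 1.01e-04. Ranks without Hamp, an alternative added after seeing the data, gave 12 lower, 1 at an unadjusted p under 0.05, 5 other folding, 12 translocation, 8 sensor and 9 cytosolic genes lower, livers of 11, 7, 1 and 10, Hspa5 at 0.5 and Sel1l at 0.25. Median centring gave 1 at an unadjusted p under 0.05 (2.16% of named genes) and lists of 3, 4, 4, 3 and 7 lower. In iron-deficient replicates 1, 3 and 4, 17, 25 and 5 genes were below their median. Creb3l3 turned to 1.04e-05, Herpud1 to 4.86e-05 and P4hb to 3.63e-05, by a constant larger than their differences. The share of named genes at an unadjusted p under 0.05 was 11.6% after quantile normalization without Hamp. It was 12.5% for ranks without Hamp and 13.0% for the mean of all probe sets.

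The labels give both diets replicates 1 to 4 and do not say whether the numbers pair the livers. Over all named genes, the deviations of same-numbered livers had correlations of -0.0881, 0.0283, -0.0209 and -0.0946. Differently numbered livers gave -0.160 to 0.169, so these values do not settle whether the livers were paired. With the replicate block, 25 of 31 genes were lower, none was called and the median was -0.932. An unadjusted p under 0.05 was then found for 6 genes (11.1% of named genes). The genes under 0.05 were not the same as without the block. Hspa5 then had an unadjusted p of 0.00360 and an adjusted p of 0.323 in limma. Dnajc3 and P4hb rose to unadjusted p of 0.132 and 0.0823 in limma.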
